A study of Mus musculus with 2 samples.

Results

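The 37 genes described here encode the transporters and enzymes that carry glucose through glycolysis and the tricarboxylic acid (TCA) cycle. They were chosen by name, as the rows of the deposited count matrices that carry these symbols, out of 31053 genes. The 37 symbols stood in 38 rows, because Aldoa was listed under 2 identifiers, of which the second had no UMI in any gated cell. The genes were 2 glucose transporters, the glucose-6-phosphatase G6pc2, 13 glycolytic enzyme genes, Ldhb, 5 genes of pyruvate entry into mitochondria and 15 genes of the TCA cycle.

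Islet cells of female C57BL/6J mice were examined by single-cell RNA sequencing in 2 libraries, 1 per group, and both groups were of the wild-type genotype. The multipara mice were mated from 9 weeks of age to go through 3 consecutive pregnancies, and their islets were taken 3 weeks after the last delivery. The virgin mice were age-matched littermates that had not been mated. The labels do not tie individual mice to a library, and the comparison asks how islet cells differ after repeated pregnancies. All islets were kept for a short time in serum-containing medium and were dissociated with trypsin, which both groups share.

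A beta cell senses glucose by metabolising it. Glucose enters through the facilitative transporter GLUT2 (Slc2a2), is phosphorylated and then passes down glycolysis to pyruvate. Pyruvate is then carried into mitochondria, where pyruvate dehydrogenase turns it into acetyl-CoA and pyruvate carboxylase (Pcx) turns it into oxaloacetate. The TCA cycle supplies the reducing power for ATP synthesis, and the rise in ATP closes potassium channels and starts insulin secretion. Beta cells are known for holding lactate dehydrogenase A (Ldha) and the lactate transporter MCT1 (Slc16a1) at very low levels, so that pyruvate is burnt rather than released as lactate.

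Cells were assigned to types by their own hormone or marker molecules, none of which was a gene of this set. Each transcript molecule carries a unique molecular identifier (UMI). A cell was called beta-like when Ins1 and Ins2 gave at least 10% of its UMIs, and alpha-, delta- or PP-like when Gcg, Sst or Ppy did so, with each of the other hormones under 5%. Cells low in all hormones were called endothelial-like, stromal-like, macrophage-like, T cell-like or B cell-like from marker lists. The virgin library gave 1778 beta-like, 1016 alpha-like, 233 delta-like, 83 PP-like and 258 endothelial-like cells. The multipara library gave 1568, 630, 225, 85 and 209 of them. The libraries held 94853806 and 82503776 UMIs, and 7 cell barcodes occurred in both. The median depth of a beta-like cell was 30062.5 UMIs for virgin and 32392.5 for multipara, against 4364.5 and 5136 in endothelial-like cells. Among genes kept only for checking the types, 7 of 7 beta, 5 of 7 alpha, 4 of 5 delta and 3 of 5 PP genes were highest in their own type in both libraries. Acinar genes summed to 3.19 and 5.20 CPM in beta-like cells, and to 170.4 and 201.1 CPM in delta-like cells, where Cela1 gave most of it.

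Levels are given in CPM, in which UMIs outside the hormone genes were brought to an equal sum in every type and library. Hormone transcripts took 61.7% and 63.0% of the UMIs of beta-like cells but 1.56% and 2.39% of those of endothelial-like cells, so a scale that kept them would lower every other gene in beta-like cells. A 3′ library counts a molecule once whatever its length, so levels of different genes are not scaled by length. Reads of some genes can be lost or shared in counting, so ranks and shares between genes are approximate. Where 2 values follow each other below, the virgin library comes first. Intervals are 95% intervals that cover counting error only.

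The genomic start of 3 of the genes is shown, because Slc2a2 and G6pc2 were the members most restricted to beta-like cells and Fh1 differed most between the libraries. Slc2a2 (ENSMUSG00000027690) lies on chromosome 3 from 28697903 to 28731359 (plus strand), G6pc2 (ENSMUSG00000005232) on chromosome 2 from 69211073 to 69227841 (plus strand), and Fh1 (ENSMUSG00000026526) on chromosome 1 from 175600374 to 175625635 (minus strand), in GENCODE M21 on GRCm38. The 250 bases before the start site were taken from RefSeq (GRCm38.p6), at chr3:28697653-28697902, chr2:69210823-69211072 and chr1:175625636-175625885. G6pc2 had 2 start sites listed, and the upstream one is shown. They are written 5′ to 3′ on the strand of the gene, with matches to the E box CANNTG in capitals.
Slc2a2: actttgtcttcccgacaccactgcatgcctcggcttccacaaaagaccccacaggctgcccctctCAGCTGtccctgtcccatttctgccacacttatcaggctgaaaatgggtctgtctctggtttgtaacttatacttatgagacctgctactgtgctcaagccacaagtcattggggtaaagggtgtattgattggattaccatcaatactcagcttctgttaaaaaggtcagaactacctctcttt
G6pc2: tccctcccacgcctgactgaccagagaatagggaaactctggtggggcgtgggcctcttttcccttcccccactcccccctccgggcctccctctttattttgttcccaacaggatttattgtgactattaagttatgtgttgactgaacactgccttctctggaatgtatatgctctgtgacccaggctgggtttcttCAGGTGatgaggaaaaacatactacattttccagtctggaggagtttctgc
Fh1: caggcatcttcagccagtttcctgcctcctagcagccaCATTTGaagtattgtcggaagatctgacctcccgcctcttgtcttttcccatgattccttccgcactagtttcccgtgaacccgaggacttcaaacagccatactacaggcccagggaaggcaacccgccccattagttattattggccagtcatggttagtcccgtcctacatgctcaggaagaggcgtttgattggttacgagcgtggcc

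Each window held 1 E box match, which is unremarkable, since 66.2% of all 32851 promoter windows of this length held one. RefSeq gave windows for 35 of the 37 genes, all but Sdhc and Idh3a, and 24 of the 35 held an E box, as did 69.3% of all genes. The CCAAT box, searched as CCAAT on both strands, was present for 18 of the 35, Slc2a2 and Fh1 among them, against 37.5% of all genes. The core of the hypoxia response element, ACGTG on either strand, was present for 13 of the 35, against 18.5% of all genes. They were Aldoa, G6pc2, Idh3g, Mdh1, Ogdh, Pcx, Pdhb, Pfkm, Pgam1, Pgk1, Pkm, Sdha and Slc2a1. A gene was counted if any of its windows held the match, and for G6pc2 it lay in the window not printed. A match of letters is a description and does not show that a factor binds.

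On the scale of non-hormone UMIs, the whole set was most abundant in beta-like cells. The 37 genes gave 0.709% of the non-hormone UMIs of beta-like cells in the virgin library and 0.711% in the multipara library. In delta-like cells they gave 0.445% and 0.446%, in PP-like cells 0.410% and 0.442%, in alpha-like cells 0.347% and 0.369%, and in endothelial-like cells 0.338% and 0.322%. Slc2a2 and G6pc2 accounted for much of this excess. Without the transporters, G6pc2 and Ldhb, the glycolytic enzymes summed to 2548 and 2572 CPM in beta-like cells, against 1655 and 1774 in alpha-like, 2280 and 2308 in delta-like and 2003 and 1942 in endothelial-like cells. The 15 TCA cycle genes summed to 2219 and 2451 CPM in beta-like cells, 1498 and 1600 in alpha-like, 1859 and 1827 in delta-like, and 1112 and 1008 in endothelial-like cells. Of these 4 types, beta-like cells had the highest of both sums in each library on this scale. Alpha-like cells had the lowest for glycolysis and endothelial-like cells the lowest for the TCA cycle. These sums carry no TMM scaling. Without it, the median gene was higher in beta-like cells by 0.21 against alpha-like and 0.42 against endothelial-like cells on the log2 scale. In the multipara library the smaller stromal-like and T cell-like groups had higher glycolysis sums than beta-like cells, at 2935 and 2812 CPM. As a share of all UMIs, hormones included, the 37 genes gave 0.271% and 0.263% in beta-like cells. That was above alpha-like (0.208% and 0.212%) and PP-like cells (0.179% and 0.183%). It was below delta-like (0.317% and 0.310%) and endothelial-like cells (0.333% and 0.314%).

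**Figure D1:**
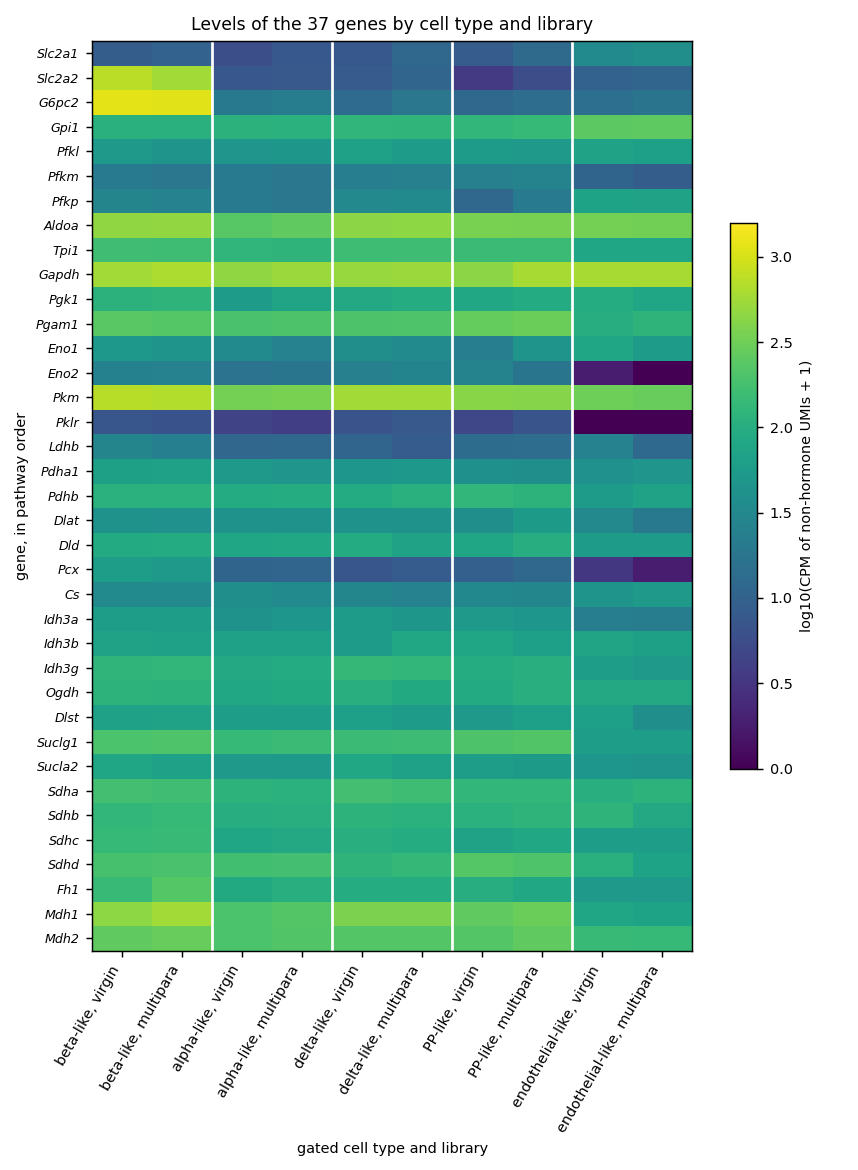
Level of each of the 37 genes as log10 of CPM of non-hormone UMIs plus 1, for 5 gated cell types in the virgin and the multipara library, with genes in pathway order. Slc2a2 and G6pc2 stand out in the beta-like columns, and Eno2, Pklr and Pcx are near 0 in the endothelial-like columns.

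To ask which genes differed between cell types, UMIs were summed per library and type, and the 10 sums of beta-, alpha-, delta-, PP- and endothelial-like cells were fitted together with edgeR, with library as a covariate. The spread in this test is that between 2 libraries that also differ in condition. Against alpha-like cells, 20 of the 37 genes were higher in beta-like cells and 2 were lower (Gpi1 and Cs) at an adjusted p under 0.05. Of all 11752 genes tested, 28.3% were higher and 27.4% lower in beta-like cells. Against delta-like cells, 18 genes were higher and 1 (Pfkl) was lower, where 23.7% and 23.4% of all genes were. Against endothelial-like cells, 20 were higher and 8 were lower, where 36.6% and 35.0% of all genes were. The median difference of the 37 genes was 0.25, 0.26 and 0.43 on the log2 scale against the 3 types, beside 0.00, 0.02 and 0.09 over all genes. The called genes had the same direction in each library alone for 22 of 22, 19 of 19 and 26 of 28 genes, and for the remaining 2, Eno2 and Pklr, a library had no UMI in endothelial-like cells.

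**Figure D2:**
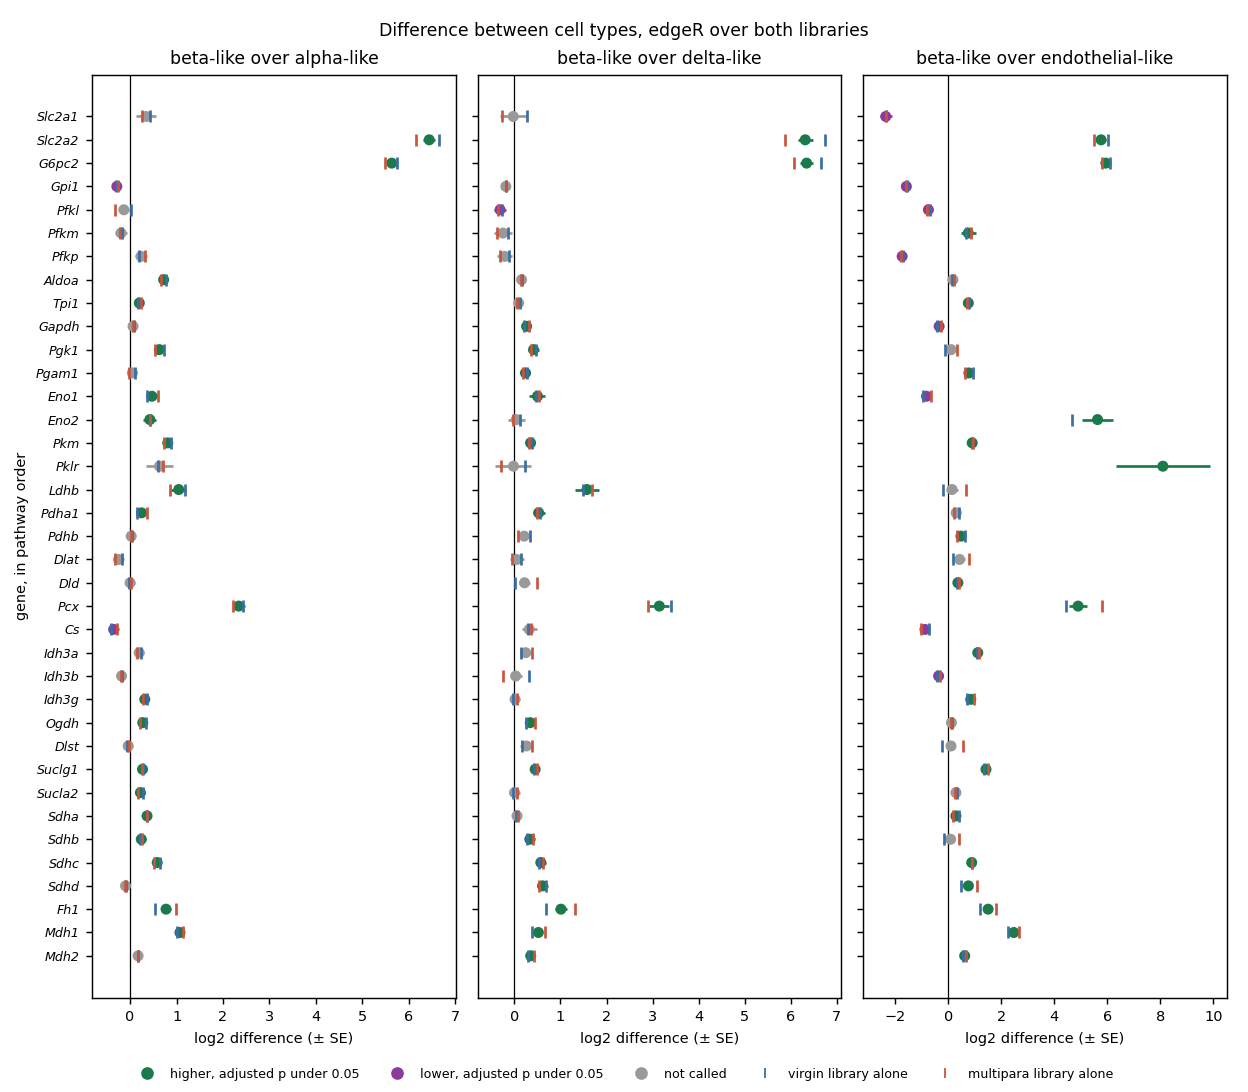
Log2 difference of each gene between beta-like cells and alpha-, delta- or endothelial-like cells, with its SE, from the edgeR fit over both libraries (circles), and the value within each library alone (ticks). Green circles are higher and purple ones lower in beta-like cells, and Slc2a2 and G6pc2 lie beyond 5 on the log2 scale in all 3 panels.

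The glucose transporters differed widely between types. Slc2a2 stood at 740.7 and 568.3 CPM in beta-like cells and at 6.33 and 6.88 CPM in alpha-like cells, 86.9-fold apart (log2 6.44 ± 0.13, SE, adjusted p = 9.4e-23, edgeR). The other types were as low, with 7.26 and 9.96 CPM in delta-like and 9.07 and 10.0 CPM in endothelial-like cells. Per cell, these other types held between 0.275% and 1.20% of the Slc2a2 UMIs of a beta-like cell. Ins2, which alpha-like and immune-like cells should lack, stood at 0.303% to 0.941% of its beta-like level in the same 8 types. Ins2 was a gate gene, so its level outside beta-like cells was capped by the gates, while that of Slc2a2 was not. In alpha-like cells the values were 0.742% and 1.09% for Slc2a2 and 0.513% and 0.887% for Ins2. The part of free RNA in the low Slc2a2 values was not tested, so the fold over alpha-like cells describes the counts as they stand. Slc2a2 made up 98.9% of the UMIs of Slc2a1, Slc2a2 and Slc2a3 in the virgin beta-like cells (interval 98.8 to 99.1) and 98.4% in the multipara ones.

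Slc2a1, which encodes the widely used transporter GLUT1, was the leading transporter of endothelial-like cells, with 31.7 and 37.0 CPM and 72.4% and 75.0% of the transporter UMIs. In beta-like cells it stood at 7.70 and 9.02 CPM, lower than in endothelial-like cells by 2.36 ± 0.23 on the log2 scale (adjusted p = 1.1e-09, edgeR). In alpha-like cells the 3 transporters had 48, 62 and 67 UMIs in the virgin library (Slc2a1, Slc2a2 and Slc2a3), and 41, 43 and 32 in the multipara library. Slc2a3, the high-affinity transporter GLUT3, had 4 and 5 UMIs in all beta-like cells together, and alpha-like cells held more of it (log2 beta over alpha -4.72 ± 0.45, adjusted p = 2.0e-09, edgeR).

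G6pc2, a glucose-6-phosphatase of islets that takes the phosphate off glucose-6-phosphate again, was the most abundant of the 37 genes in beta-like cells, with 1177 and 1126 CPM. It stood at 18.8 and 21.6 CPM in alpha-like cells, 49.6-fold lower in the fit (log2 5.63 ± 0.10, adjusted p = 3.9e-23, edgeR). Per cell, alpha-like cells held 1.39% and 1.73% of the beta-like G6pc2 level, the highest of the 8 other types, which ranged from 0.303% upward. The beta cell factor Mafa stood at 0.814% and 1.39% of its beta-like level in the same alpha-like cells. G6pc3, the phosphatase used in most tissues, was the main form in the other endocrine types, with 66.5% and 61.2% of the phosphatase UMIs in alpha-like cells but 3.58% and 4.11% in beta-like cells.

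The hexokinase Hk1 is named here for its step although it is not among the 37 genes. It had 7 and 3 UMIs in all beta-like cells, against 147 and 88 in the fewer alpha-like cells (log2 -5.86 ± 0.31, adjusted p = 1.7e-14, edgeR). Its level was 71.8 and 65.6 CPM in endothelial-like cells and 15.0 and 14.1 CPM in alpha-like cells, and delta-like cells had 0 and 1 UMI. Hk2 had 1 UMI in the beta-like cells of each library and 28 and 40 UMIs in macrophage-like cells.

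**Figure D3:**
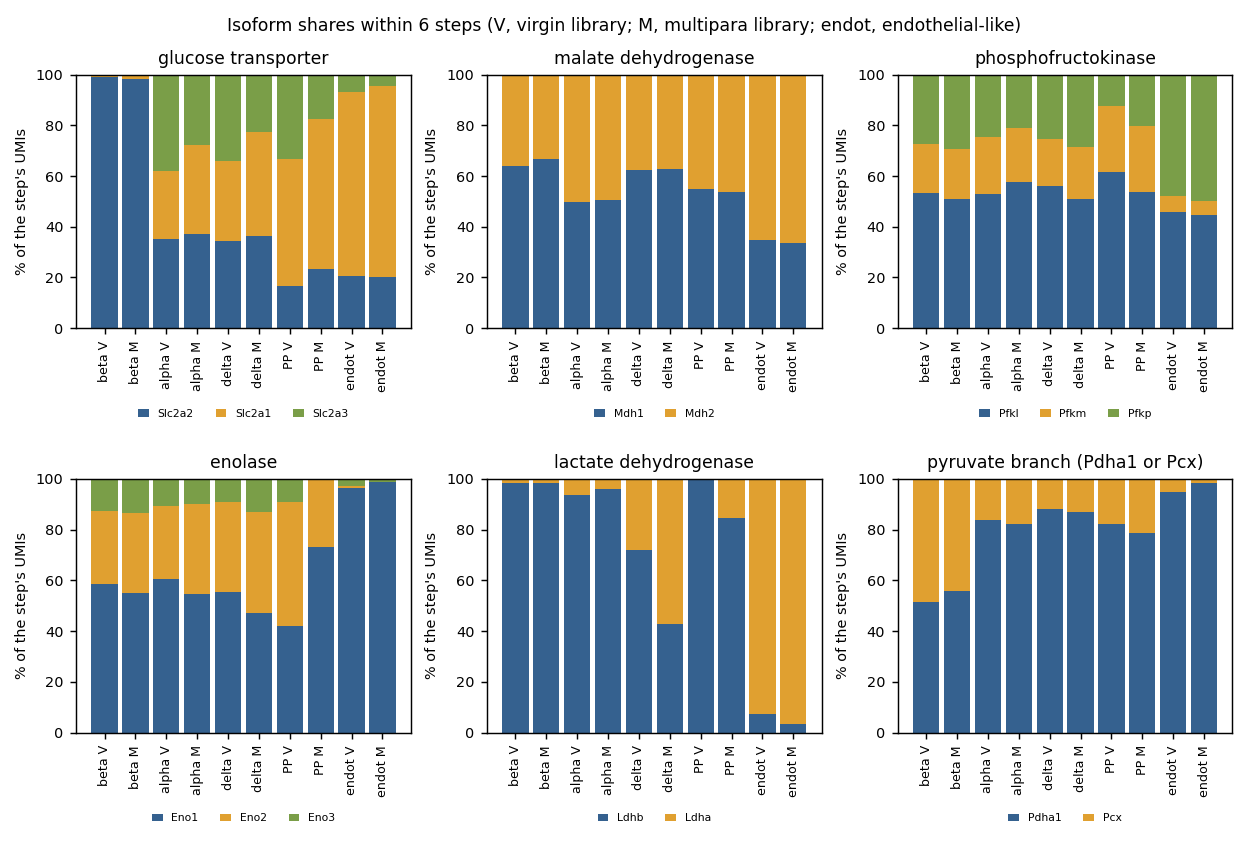
Share of each isoform among the UMIs of its step, in percent, for 6 steps in 5 gated cell types of the virgin (V) and the multipara (M) library. Slc2a2 and Ldhb fill most of the beta-like bars of their steps, Slc2a1 and Ldha most of the endothelial-like ones, and Pcx takes 44.2% to 48.6% of the pyruvate branch in beta-like cells.

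The upper glycolytic enzymes showed smaller contrasts. Gpi1, glucose-6-phosphate isomerase, stood at 105.3 and 106.1 CPM in beta-like cells, 112.7 and 109.7 in alpha-like and 250.1 and 255.3 in endothelial-like cells, and was lower in beta-like cells than in endothelial-like ones by 1.59 ± 0.09 on the log2 scale (adjusted p = 3.1e-14, edgeR). Against alpha-like cells the difference was -0.29 ± 0.08 (adjusted p = 0.0044, edgeR), and this call was lost without TMM scaling. Of the phosphofructokinases, the committed step of glycolysis, Pfkl made up 53.2% and 50.8% in beta-like cells, Pfkp 27.2% and 29.2% and Pfkm, the muscle form, 19.5% and 20.1%. Alpha- and delta-like cells had nearly the same make-up, with Pfkl between 50.8% and 57.7%. In endothelial-like cells Pfkp and Pfkl shared the step, with Pfkp at 47.7% and 49.7%, and Pfkm gave 6.53% and 5.52% of 199 and 181 UMIs. Pfkp was lower in beta-like than in endothelial-like cells by 1.75 ± 0.15 (adjusted p = 1.0e-10) and Pfkm was higher by 0.75 ± 0.27 (adjusted p = 0.017, edgeR).

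Aldoa, fructose-bisphosphate aldolase, stood at 469 and 480 CPM in beta-like cells and at 235 and 262 in alpha-like cells, a difference of 0.72 ± 0.07 on the log2 scale (adjusted p = 7.6e-09, edgeR). Delta-like cells stood at 437 and 448 CPM, and the difference from beta-like cells did not pass the test (0.15 ± 0.08, adjusted p = 0.11). Tpi1, triose phosphate isomerase, was 0.20 ± 0.08 higher in beta- than in alpha-like cells (adjusted p = 0.040, edgeR), a call that the hormone gates at 20% and at 5% did not keep.

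Of all genes tested, 28.3% were higher in beta-like than in alpha-like cells, and in lower glycolysis 4 of the 7 genes were. These were Pgk1 (phosphoglycerate kinase, 0.63 ± 0.10 on the log2 scale), Eno1 (0.47 ± 0.13) and Eno2 (0.42 ± 0.14), which are enolases, and Pkm (pyruvate kinase, 0.81 ± 0.07, adjusted p = 5.4e-10, edgeR). Gapdh, often used as a reference gene, stood at 562 and 631 CPM in beta-like and 460 and 528 in alpha-like cells, and the difference in the fit was 0.06 ± 0.08. Pgam1, phosphoglycerate mutase, differed by 0.05 ± 0.08, and Pklr by 0.63 ± 0.30 (adjusted p = 0.075).

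The enolases differed between endocrine and endothelial-like cells. Eno2, the form of neurons and endocrine cells, had 479 and 438 UMIs in beta-like cells (24.3 and 25.3 CPM) and 15.6 and 16.3 CPM in alpha-like cells, but 1 UMI in all endothelial-like cells of both libraries. It was not particular to endocrine cells, since stromal-like cells had 8 and 2 UMIs (12.0 and 9.04 CPM). The ratio of beta-like to endothelial-like cells was 64.9, with a counting interval of 11.6 to 2565. Eno1, the ubiquitous form, went the other way, with 49.2 and 44.1 CPM in beta-like and 76.3 and 55.5 in endothelial-like cells (log2 -0.82 ± 0.16, adjusted p = 7.5e-05, edgeR). Eno1 took 58.4% and 54.9% of the enolase UMIs in beta-like cells and 96.2% and 98.6% in endothelial-like cells. Eno3, the muscle form, gave 12.9% and 13.7% in beta-like cells.

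Pkm made up at least 98.6% of pyruvate kinase in every type shown. It was the most abundant glycolytic enzyme gene of beta-like cells, with 717 and 684 CPM, against 335 and 356 in alpha-like, 574 and 569 in delta-like and 311 and 287 in endothelial-like cells. Its splice forms M1 and M2 cannot be told apart by counts per gene. Pklr, the liver and red cell form, had 124 and 94 UMIs in beta-like cells (6.28 and 5.44 CPM), and 3.57 and 2.88 CPM in alpha-like cells. It had no UMI in endothelial-, stromal-, macrophage-, T cell- or B cell-like cells. Against a floor of 3 counts over the endothelial-like cells of both libraries, its level in beta-like cells was at least 5.14-fold higher.

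At the lactate step the choice of subunit was opposite in beta-like and endothelial-like cells. Ldhb stood at 27.2 and 23.2 CPM in beta-like cells, with 537 and 402 UMIs, while Ldha had 9 and 7 UMIs in the same cells. In endothelial-like cells, which were fewer and shallower, Ldha had 415 and 412 UMIs (314 and 318 CPM) and Ldhb 33 and 15. With depth taken into account, the Ldhb difference of beta-like over endothelial-like cells did not pass the test (log2 0.14 ± 0.24, adjusted p = 0.61, edgeR). Within each library alone it was -0.20 and 0.67. The opposite choice of subunit therefore came mainly from Ldha. Ldha was 731-fold higher in endothelial-like than in beta-like cells by summed CPM, with a counting interval of 447 to 1284. Ldhb exceeded its level in alpha-like cells by 1.05 ± 0.16 (adjusted p = 4.2e-06) and in delta-like cells by 1.58 ± 0.26 on the log2 scale (adjusted p = 1.3e-05, edgeR). Delta-like cells were the endocrine type with most Ldha, 3.91 and 9.96 CPM from 7 and 16 UMIs, and it was lower in beta-like cells by 3.85 ± 0.51 (adjusted p = 6.2e-07, edgeR). Slc16a1, the lactate transporter MCT1, had no UMI in virgin and 0.0578 CPM in multipara beta-like cells, against 9.07 and 5.40 CPM in endothelial-like cells.

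At the mitochondrial entry of pyruvate, Pcx set beta-like cells apart. It stood at 61.8 and 53.5 CPM in beta-like, 9.90 and 9.93 in alpha-like, 6.15 and 7.47 in delta-like, 8.71 and 10.6 in PP-like and 2.27 and 0.771 in endothelial-like cells. Beta-like cells exceeded alpha-like cells by 2.34 ± 0.13 on the log2 scale (adjusted p = 5.4e-14) and delta-like cells by 3.15 ± 0.22 (adjusted p = 7.1e-12, edgeR). Per cell, alpha-like cells held 13.9% and 16.7% of the beta-like Pcx level, beside 0.742% and 1.09% for Slc2a2. Endothelial-like cells held 1.69% and 0.810% of the beta-like Pcx level. The part of free RNA in these values was not tested. Pdha1, the E1 alpha subunit of pyruvate dehydrogenase, differed much less, by 0.25 ± 0.10 from alpha-like cells (adjusted p = 0.034, edgeR). Of the UMIs of Pdha1 and Pcx together, Pcx therefore gave 48.6% and 44.2% in beta-like cells, 16.3% and 17.9% in alpha-like and 11.7% and 13.0% in delta-like cells. Pdhb, Dlat and Dld, the other subunits of the complex, differed from alpha-like cells by 0.02 ± 0.09, -0.25 ± 0.11 and 0.00 ± 0.10, and none passed the test.

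In the TCA cycle, 9 of the 15 genes were higher in beta-like than in alpha-like cells and 1, Cs, was lower. Of all genes tested, 28.3% were higher and 27.4% lower in beta-like cells. Mdh1, the cytosolic malate dehydrogenase of the malate-aspartate shuttle, led with 455 and 563 CPM in beta-like cells and 195 and 222 in alpha-like cells (1.07 ± 0.08 on the log2 scale, adjusted p = 2.4e-11, edgeR). Fh1, fumarate hydratase, followed with 145 and 226 CPM against 85.9 and 99.1 (0.77 ± 0.11, adjusted p = 2.3e-06). Sdhc differed by 0.58 ± 0.09, Sdha by 0.36 ± 0.08 and Sdhb by 0.24 ± 0.09, which are subunits of succinate dehydrogenase. The remaining subunit, Sdhd, stood at 184 and 188 CPM in beta-like and 169 and 175 in alpha-like cells and did not pass the test. Idh3g (0.32 ± 0.09), Ogdh (0.27 ± 0.09), Suclg1 (0.27 ± 0.08) and Sucla2 (0.22 ± 0.09) completed the list. Cs, citrate synthase, which opens the cycle, was lower by 0.35 ± 0.11 (adjusted p = 0.0065), and this call was lost without TMM scaling.

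Against endothelial-like cells, Mdh1 differed by 2.47 ± 0.11 (adjusted p = 1.8e-16), Fh1 by 1.5 ± 0.16, Suclg1 by 1.42 ± 0.11 and Idh3a by 1.11 ± 0.17, whereas Cs was lower in beta-like cells by 0.88 ± 0.15 and Idh3b by 0.37 ± 0.14 (edgeR). The cytosolic form Mdh1 gave 63.8% and 66.6% of the malate dehydrogenase UMIs in beta-like cells, 62.4% and 62.7% in delta-like, 49.7% and 50.6% in alpha-like, and 35.0% and 33.5% in endothelial-like cells, where the mitochondrial Mdh2 led. Among the subunits of NAD-dependent isocitrate dehydrogenase, Idh3g was the most abundant in beta-like cells, at 49.4% and 50.7% of their UMIs, and Idh3b in endothelial-like cells, at 46.9% and 46.7%. Sucla2, the ATP-forming subunit of succinyl-CoA ligase, exceeded Suclg2 in every endocrine type, with 59.8% and 57.7% in beta-like cells.

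Between the multipara and the virgin library most of the set lay close together in beta-like cells. With 1 library per group there is no test, and what follows describes this pair of libraries. All 37 genes had the 200 UMIs over both libraries asked for a comparison, and of these 1 was higher in the multipara library by at least 25% and 1 was lower, at 80% or less of its virgin level. Of all 9941 genes compared in beta-like cells, 4.47% were higher and 7.41% lower by these limits. The median log2 ratio was -0.01 over the 37 genes and -0.04 over all genes, and 18 of the 37 ratios were above 0. The counting interval lay above 0 for 6 of them and below 0 for 9. The share of all genes with an interval off 0 was not counted, so these counts have no background.

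Fh1 was the gene above the upper limit. Virgin beta-like cells had 2869 Fh1 UMIs (145 CPM) and multipara ones 3911 (226 CPM), 1.56-fold more, a log2 ratio of 0.64 (0.57 to 0.71). After each cell was thinned to 5000 UMIs, a Fh1 UMI was found in 21.7% of the virgin beta-like cells and 29.7% of the multipara ones, and before thinning in 66.5% and 71.6%. The log2 ratio of Fh1 was 0.21 (0.05 to 0.36) in alpha-like cells and -0.01 (-0.33 to 0.32) in delta-like cells. The intervals of beta-like and alpha-like cells do not overlap, but with 1 library per group the difference between them has no test.

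Slc2a2 was the gene below the lower limit. Virgin beta-like cells had 14623 Slc2a2 UMIs (741 CPM) and multipara ones 9828 (568 CPM), a log2 ratio of -0.38 (-0.42 to -0.35). After thinning, 69.8% and 60.7% of beta-like cells had a Slc2a2 UMI. G6pc2 differed by -0.06 (-0.09 to -0.04).

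Mdh1 lay just short of the upper limit, with 455 and 563 CPM, 1.24-fold more in the multipara beta-like cells (log2 0.31, 0.27 to 0.35). Its mitochondrial partner Mdh2 differed by 0.13 (0.07 to 0.19). Of the remaining TCA cycle genes, Suclg1 differed by 0.12 (0.05 to 0.18), Sucla2 by -0.15 (-0.27 to -0.04) and Sdha by -0.08 (-0.15 to -0.01), and the other 9 had intervals that included 0. The summed TCA cycle level was 231 CPM higher in the multipara library, and the sum of Fh1 and Mdh1 was 189 CPM higher.

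In glycolysis of beta-like cells, Gapdh was higher in the multipara library by 0.17 (0.13 to 0.21) and Pgk1 by 0.11 (0.02 to 0.19), and Pfkl was lower, at -0.26 (-0.40 to -0.13), as was Pkm, at -0.07 (-0.10 to -0.03). Eno1 stood at -0.16 (-0.30 to -0.02), but at 0.14 after thinning to 5000 UMIs. Thinning leaves fewer UMIs and the thinned value has no interval here, so the direction of Eno1 is not settled. Ldhb differed by -0.23 (-0.42 to -0.04) and Pcx by -0.21 (-0.33 to -0.08). None of these passed either limit at the main setting, but Pfkl passed the lower one after thinning and without the cell filter. Over 9 alternatives Pfkl ranged from -0.39 to -0.22 and Ldhb from -0.52 to -0.03. Of the 37 ratios in beta-like cells, 16 fell outside their counting intervals after thinning and 8 with each cell weighted equally. These intervals are those at full depth and do not cover the counting error that thinning adds. The isoform shares of beta-like cells moved by less than 5 percentage points between the libraries at every step shown, the largest being Pcx at the pyruvate branch, from 48.6% (46.6 to 50.5) to 44.2% (42.1 to 46.4).

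**Figure D4:**
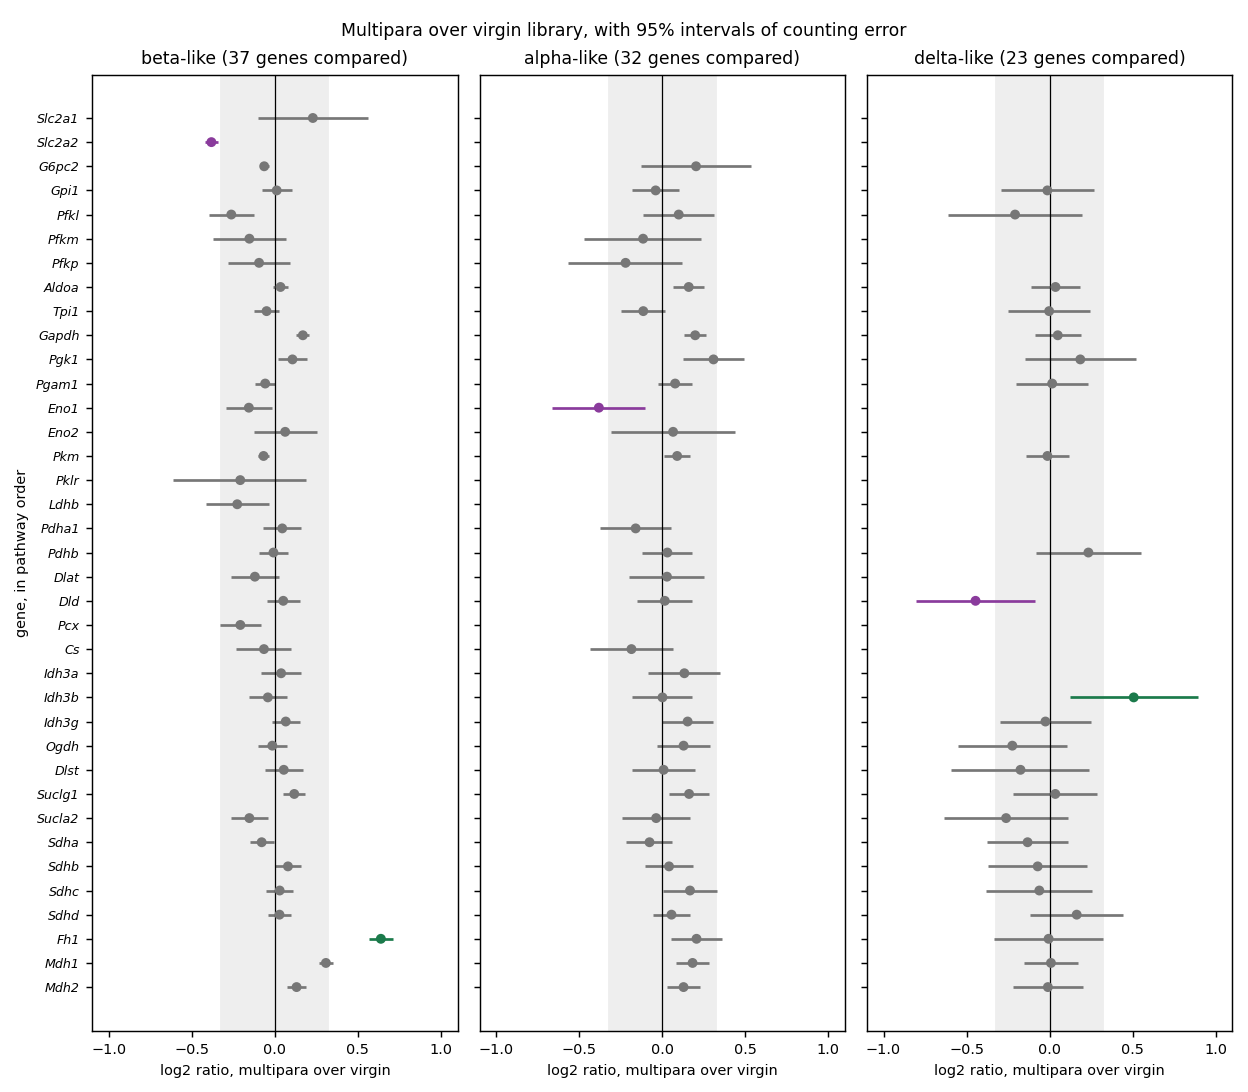
Log2 ratio of each gene, multipara over virgin library, with its 95% interval of counting error, in beta-, alpha- and delta-like cells, for genes with at least 200 UMIs over both libraries. The grey band spans the limits of 80% and 125% of the virgin level, outside which lie Fh1 (0.64) and Slc2a2 (-0.38) in beta-like, Eno1 (-0.38) in alpha-like, and Idh3b (0.51) and Dld (-0.45) in delta-like cells.

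In alpha-like cells 32 of the genes could be compared. None was higher by 25% and 1, Eno1, was below the lower limit, with 321 and 157 UMIs (log2 -0.38, -0.67 to -0.10). Eno1 was no longer past the limit with each cell weighted equally (-0.30) or after thinning (-0.16). Of all 7587 genes, 2.91% were higher and 5.65% lower. The median of the 32 ratios was 0.06 and that of all genes -0.02, and 9 intervals lay above 0 against 1 below. Those above 0 were Pgk1 (0.31), Fh1 (0.21), Gapdh (0.20), Mdh1 (0.18), Sdhc (0.17), Suclg1 (0.16), Aldoa (0.16), Mdh2 (0.13) and Pkm (0.09). The share of all genes with an interval off 0 was not counted here either. On a scale of all UMIs the median of the 32 genes was 0.00 and that of all genes -0.09. In delta-like cells 23 genes could be compared, and Idh3b was higher (102 and 130 UMIs, log2 0.51, 0.12 to 0.89) and Dld lower (167 and 110 UMIs, log2 -0.45, -0.81 to -0.09). In these cells 3.77% of the 2973 genes were higher and 5.42% lower, so a count of 1 in each direction lies near the background. With the hormone gate at 20%, 12 genes had enough UMIs to be compared and neither call was made, at log2 ratios of 0.62 for Idh3b and -0.52 for Dld.

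Transcripts of the dissociation response, such as Fos and Jun, moved with the library in beta-like cells, with 18538 and 20768 CPM, and in delta-like cells, with 24079 and 32082 CPM. Their part in the ratios above was not tested. The stress gene Nupr1 was seen in 330 of 1637 thinned virgin and 662 of 1388 thinned multipara beta-like cells. Beta-like cells with a Nupr1 UMI had more Gapdh in each library (log2 0.31, 0.16 to 0.47, and 0.18, 0.04 to 0.31) and more G6pc2 (0.19 and 0.18). Others had an interval off 0 in the virgin library only, such as Gpi1 (-0.50) and Mdh2 (0.29). Cs (0.71) and Ogdh (-0.36) were among those with one in the multipara library only. The split was not run over all genes, so these values have no background. For Fh1, cells with and without Nupr1 differed by 0.02 (-0.33 to 0.36) in the virgin and -0.36 (-0.61 to -0.12) in the multipara library. For Slc2a2 they differed by -0.08 (-0.24 to 0.07) and 0.28 (0.13 to 0.43), and for Mdh1 by -0.31 (-0.52 to -0.11) and -0.06 (-0.21 to 0.09).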

How the data were processed

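Islets of 2 groups were profiled with the 10x Chromium 3′ v3.1 chemistry, 1 library per group. The deposited files hold UMI counts, whole numbers per gene and barcode. Per the labels, the authors counted with Cell Ranger 3.1.0 on GRCm38 (mm10). Seurat 3.0 is also named there. The genes and lists were chosen with earlier results of these data known, and all 37 genes are named. Of 60 other genes of the pathway, those sharing a step with a member were named, and the 3 highest and 3 lowest ratios in beta-like cells among those with 200 UMIs. Some genes of these steps are not reported here.

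The cell filter of the study (gene number above 200 and below 6000, UMI number below 60000, mitochondrial share below 10%) left 4391 virgin and 3374 multipara cells. Scrublet (scanpy 1.11.5) removed 79 and 18 doublets (1.80% and 0.533%, below the prior rates of 3.51% and 2.70%, so that some can remain). Gates then took 3884 and 2964 cells. The 428 and 392 cells left out include 273 and 232 with more than 1 hormone. Type names are rebuilt from hormone and marker UMIs.

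Types were compared with edgeR 4.0.16 (quasi-likelihood test, TMM over non-hormone UMIs, genes with low counts filtered, Benjamini-Hochberg adjustment over all 11752 genes, R 4.3.3, limma 3.58.1). The 10 sums left 4 residual degrees of freedom for a gene, and an SE is the difference divided by the square root of F. The script was tested on simulated data. DESeq2 1.42.0 was an alternative. Multipara and virgin were compared by ratios with exact conditional binomial intervals, shares by Clopper-Pearson intervals and levels by Poisson intervals (95%). A gene counted as higher from 25% above its virgin level and as lower from 80% of it down, with at least 200 UMIs over both libraries. Reads of genes with near-identical copies (Gapdh, Eno1 with Eno1b, Aldoa, Pgk1, Pkm) can be lost or shared in counting. Pfkm and Pkm overlap other annotated genes on the same strand. python 3.11.15, numpy 2.4.6, pandas 2.3.3, scipy 1.17.1 and matplotlib 3.10.9 were used.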

Additional observations from a re-analysis of the deposited data

Results flagged for a closer look

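Pkm, the main pyruvate kinase gene, had ratios of opposite sign in 2 cell types. In beta-like cells the log2 ratio of multipara over virgin was -0.068 (-0.10 to -0.03) and in alpha-like cells 0.089 (0.01 to 0.17), so both counting intervals lay off 0 on opposite sides. The difference between the types was not tested, since each group was 1 library. Both values are small, and over the alternative settings they ranged from -0.13 to -0.02 in beta-like cells and from 0.03 to 0.11 in alpha-like cells.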

How the results depend on the processing

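With DESeq2, 14 of the 37 genes passed against alpha-like, 12 against delta-like and 24 against endothelial-like cells, beside 22, 19 and 28 with edgeR, and the cause was not tested. The other settings of this comparison gave 20 to 28, 15 to 24 and 27 to 34. The share of all genes that passed with DESeq2 or under these settings is not given here. Without TMM the median of all genes rose from 0.00 to 0.21 against alpha-like cells and from 0.09 to 0.42 against endothelial-like cells, and the calls were 28 higher and 0 lower, and 28 higher and 6 lower. No called difference between types changed direction under any alternative, or in either library alone where both had UMIs.

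The count of genes past the limits between libraries was 2 in beta-like cells, 5 after thinning to 5000 UMIs (Slc2a2, Fh1, Pfkl, Mdh1 and Idh3a, the last moving from 0.04 to 0.50) and 1 at 1.5-fold (Fh1). Over 9 alternatives Fh1 ranged from 0.59 to 0.68 and Slc2a2 from -0.43 to -0.34. In alpha-like cells it was 1, and 2 with TMM factors over the 2 sums and with a minimum of 50 UMIs, but 0 with each cell weighted equally, after thinning and at 1.5-fold. In delta-like cells it was 2, but 0 after thinning, with the hormone gate at 20% and at 1.5-fold. Thinning, and in delta-like cells the hormone gate at 20%, left fewer UMIs and so fewer genes to compare and more counting error. Depth limits Pklr, Pcx, Ldhb and the transporters outside beta-like cells, which had too few UMIs for a ratio between libraries. No paired analysis was possible because each group had 1 library.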

Other observations

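Other genes of the pathway also differed between cell types. Of 45 other pathway genes tested, 17 were higher and 7 lower in beta-like than in alpha-like cells (edgeR, adjusted p under 0.05). Against delta-like cells 20 were higher and 10 lower, and against endothelial-like cells 19 and 11. Of all genes, 28.3% were higher and 27.4% lower against alpha-like cells. The shares were 23.7% and 23.4% against delta-like, and 36.6% and 35.0% against endothelial-like cells. Ogdhl, an isoform of the E1 subunit of oxoglutarate dehydrogenase, was higher in the multipara beta-like cells, with 541 and 704 UMIs (27.4 and 40.7 CPM, log2 ratio 0.57, 0.41 to 0.74). It was followed by Me1, the cytosolic malic enzyme (0.29, 0.07 to 0.52) and Got1, the cytosolic aspartate aminotransferase (0.28, 0.13 to 0.43). The lowest were Pdk1, a kinase that inactivates pyruvate dehydrogenase, with 358 and 245 UMIs (-0.36, -0.60 to -0.12), Pdk2 (-0.22, -0.50 to 0.06) and the mitochondrial aspartate-glutamate carrier Slc25a12 (-0.20, -0.40 to -0.01). Of 34 such genes compared, Ogdhl and Pdk1 passed the limits, where 4.47% of all genes in beta-like cells were higher and 7.41% lower.

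Among genes outside the naming rule, chosen after their values were seen, Pdk4, another kinase of pyruvate dehydrogenase, stood at 116 and 80.7 CPM in alpha-like but 0.861 and 0.578 in beta-like cells (log2 beta over alpha -7.26 ± 0.18, adjusted p = 1.9e-21, edgeR). Fbp1, fructose-1,6-bisphosphatase, stood at 59.8 and 54.4 CPM in alpha-like and 41.3 and 47.9 in delta-like cells, against 3.39 and 1.16 in beta-like cells. Slc16a7, the monocarboxylate transporter MCT2, stood at 40.8 and 41.1 CPM in delta-like cells and at 1.11 and 0.116 in beta-like cells. Acly, ATP citrate lyase, was at 757 and 840 CPM in beta-like cells, 225 and 247 in alpha-like and 420 and 449 in delta-like cells.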
